A study of Mus musculus with 5 samples.

Results

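Macrophages and dendritic cells, the mononuclear phagocytes of the colon wall, were followed through 35 genes that mark them. Members are gene symbols, and a member was measured by the gene probes of the array whose RefSeq accession maps to its symbol. They fall into 18 resident macrophage genes, 10 genes of inflammatory monocytes and macrophages, and 7 dendritic cell genes. A named probe existed for 32 of the 35, and 23 were found by the scanner software on at least 2 arrays and so were tested, among 15078 genes or unnamed probes in all. Csf1r, the receptor for colony-stimulating factor 1, Cd68, a lysosomal glycoprotein, and Mpeg1, the pore-forming perforin-2, had no named probe, so their levels were not analysed here.

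Resident macrophages of the gut sit beneath the epithelium, where they take up microbes and dying cells and stay poorly responsive to bacterial products, in part through interleukin-10. They are replaced by blood monocytes that enter through the chemokine receptor CCR2, and under injury such monocytes give rise to inflammatory macrophages that make interleukin-1 beta. Dendritic cells, which depend on the growth factor FLT3L, carry antigen to lymph nodes. Several inflammatory members, among them Itgam, Lyz2, Il1b, Fcgr3, Fcer1g and Tyrobp, are also expressed by neutrophils.

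The villin-TLR4 group held 2 colon samples from mice in which TLR4, the receptor for bacterial lipopolysaccharide, is tied to villin, whose promoter is active in gut epithelium; replicate 1 was female and replicate 2 male, and both had been given 1.5% DSS, dextran sulfate sodium, an agent that damages colonic epithelium. The wild-type (WT) littermate group held 3 samples, all female, given 3% DSS. All mice had a C57Bl6 background, were 10 weeks old at the start, received the carcinogen azoxymethane at 7.4 mg/kg and 2 DSS cycles of 7 and 5 days, and gave colon away from tumours at day 56. Genotype and DSS concentration changed together and cannot be told apart, and the villin promoter drives expression in epithelium, not in the phagocytes described here. Whether every sample is a separate mouse is not stated in the labels. The p-values thus cover no more than sample-to-sample spread, which among the WT littermates may be technical. Values are normalised log2 intensities of single-colour arrays, differences are villin-TLR4 minus WT littermate on the log2 scale, and the number of arrays limits the precision. In tissue RNA, fewer phagocytes and less RNA per phagocyte cannot be told apart.

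One array stood apart. On WT littermate replicate 1 the software found 13352 gene probes, against 16380 to 19509 on the other arrays, and marked 1240 spots as bad, against at most 4. Across genes, which are not independent replicates, its correlation with the others was 0.885 to 0.895, while the other pairs gave 0.945 to 0.973. Neutrophil markers were high on it, and differences between genotypes are therefore given with and without it. The scans also fell on 3 days, and only scan day 3 held both genotypes, with villin-TLR4 replicate 2, the male, and WT littermate replicate 2. The difference of that pair is given as the within-day value and has no error.

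With limma, 0 members passed an adjusted p of 0.05, beside 0 of all 15078 genes tested (0%); the smallest adjusted p was 0.870 among members and 0.774 among all genes. At an unadjusted limma p under 0.05 there was 1 of 23 members, Cx3cr1, beside 4.84% of all genes, 2.70% being higher and 2.14% lower in villin-TLR4. The genotypes did not overlap for 2 of 23 members, Cx3cr1 higher and Lyz2 lower in villin-TLR4, beside 25.4% of the 14631 genes measured on all 5 arrays, 12.6% being higher and 12.9% lower. Of the 23 differences 8 were above 0 and 15 below, where 50.9% of all genes lay above 0. The median difference was -0.08 over the members and 0.01 over all genes. By class it was -0.02 for the 12 resident members, -0.42 for the 7 inflammatory members and -0.07 for the 4 dendritic members.

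**Figure D1:**
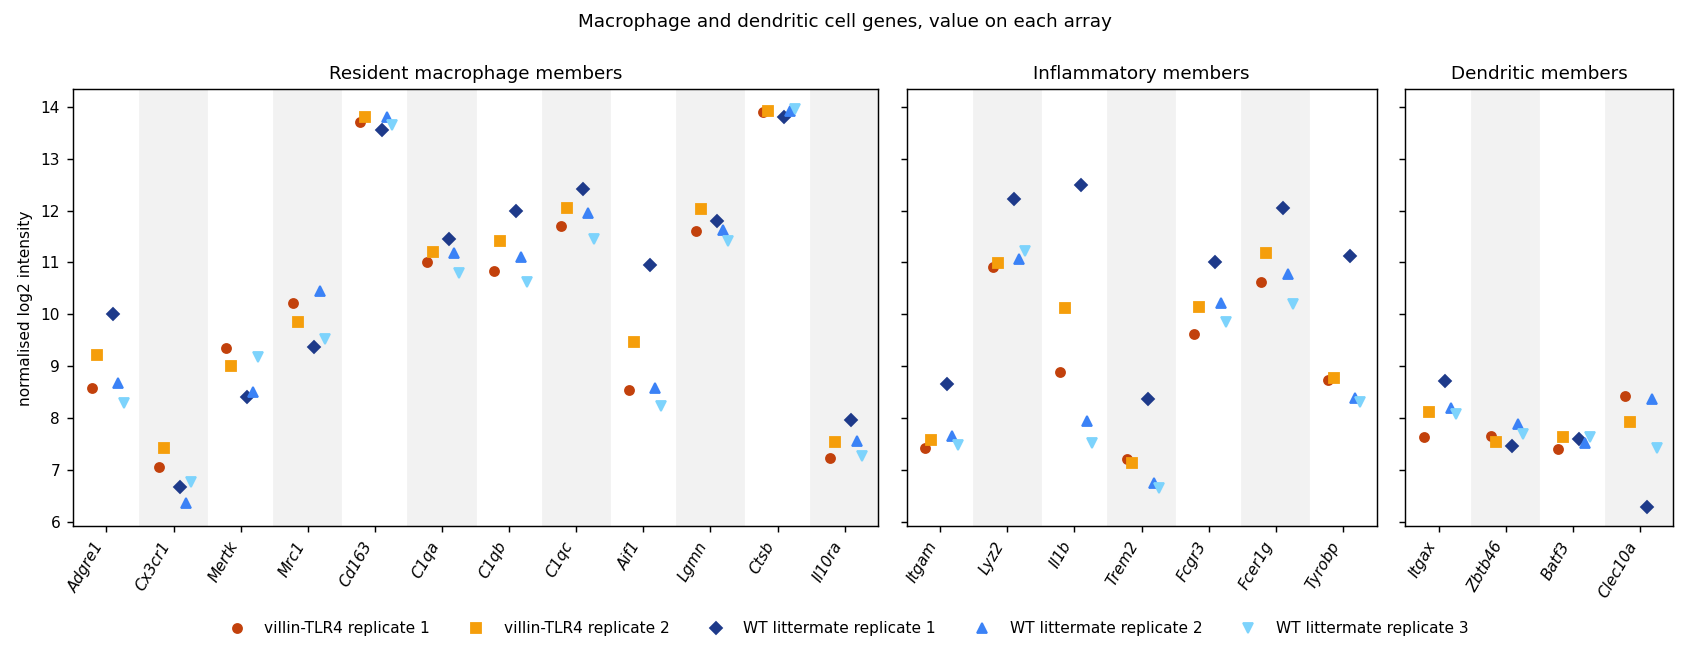
Normalised log2 intensity (y axis) of each of the 23 tested members (x axis) on the 2 villin-TLR4 arrays and, to their right, the 3 WT littermate arrays; each point is 1 array. WT littermate replicate 1 (dark diamonds) is the highest array for all 7 inflammatory members and for 6 of the 12 resident members, while Cd163 and Ctsb hardly vary.

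The array on which a member peaked differed by class. WT littermate replicate 1 was the highest array for 14 of 23 members, against 32.2% of all genes. That was true of 7 of 7 inflammatory members, 6 of 12 resident members and 1 of 4 dendritic members. WT littermate replicate 3 was the lowest array for 10 of 23 members, against 12.0% of all genes. WT littermate replicate 1 was itself the lowest array for 6 members, against 39.0% of all genes. These counts describe the arrays and were not tested.

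Promoters of resident and inflammatory members are shown as a description, since PU.1, encoded by Spi1, is a main transcription factor of myeloid cells. Its part in the values of the members was not tested. A PU.1 core, GAGGAA or its reverse complement TTCCTC, was sought on both strands in the 250 bases before the start of each gene in RefSeq (GRCm38.p6). It occurred in 11 of the 26 member genes with an entry (42.3%) and in 25.9% of 27025 genes. C1qb and C1qc, which lie near each other and share their order over the arrays, and Aif1 each held 1 match, and Il1b held none. The sequences run 5′ to 3′ on the gene's strand with the match in capitals.
C1qb, chr4:136886201-136886450, minus strand: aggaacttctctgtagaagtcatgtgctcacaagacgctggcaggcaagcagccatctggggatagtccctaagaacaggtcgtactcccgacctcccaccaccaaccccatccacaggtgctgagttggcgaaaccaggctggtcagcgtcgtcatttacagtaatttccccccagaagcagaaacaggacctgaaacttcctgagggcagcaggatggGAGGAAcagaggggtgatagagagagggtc
C1qc, chr4:136892915-136893164, minus strand: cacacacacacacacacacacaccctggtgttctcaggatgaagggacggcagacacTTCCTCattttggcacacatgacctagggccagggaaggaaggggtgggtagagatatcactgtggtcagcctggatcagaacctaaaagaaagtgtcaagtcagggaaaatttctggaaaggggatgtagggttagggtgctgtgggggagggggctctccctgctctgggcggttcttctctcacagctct
Aif1, chr17:35176053-35176302, minus strand: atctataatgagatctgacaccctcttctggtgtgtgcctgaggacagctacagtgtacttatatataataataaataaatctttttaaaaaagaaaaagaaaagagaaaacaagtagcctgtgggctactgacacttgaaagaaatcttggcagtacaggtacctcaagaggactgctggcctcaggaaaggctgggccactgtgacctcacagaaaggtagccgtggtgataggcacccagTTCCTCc
Il1b, chr2:129371140-129371389, minus strand: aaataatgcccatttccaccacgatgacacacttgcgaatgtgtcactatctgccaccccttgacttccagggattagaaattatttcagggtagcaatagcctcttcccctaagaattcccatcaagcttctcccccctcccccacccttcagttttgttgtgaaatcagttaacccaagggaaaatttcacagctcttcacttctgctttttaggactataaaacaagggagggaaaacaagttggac
The match begins 30 bases before the start in C1qb, 193 in C1qc and 7 in Aif1. A match is a description of these letters, not of binding. Spi1, singled out for this motif after its values were seen, read 7.43 and 7.91 in villin-TLR4, against 8.85, 7.68 and 7.64 in WT littermates. Its highest value was on WT littermate replicate 1, as for Aif1 and Il1b. That array was also the highest for 6 of 9 listed myeloid factors with a value on all 5 arrays, and for 32.2% of all genes.

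Among resident members, the receptors came first. Cx3cr1, the receptor for fractalkine, read 7.05 and 7.42 in villin-TLR4, against 6.67, 6.36 and 6.76 in WT littermates. Both villin-TLR4 values lay above all 3 WT littermate values, on a dim probe that was not found on WT littermate replicate 1. On WT littermate replicate 2 its value lay below 6.76, the lowest signal clearly above background on that array. The within-day value below thus sets a dim signal against a background reading. The difference was 0.63 ± 0.26 (SE), with a limma adjusted p of 0.870. It was 0.67 ± 0.24 without WT littermate replicate 1 (limma adjusted p 0.422) and 1.05 within scan day 3, the same direction in each case. Its ligand Cx3cl1 read 10.53 and 10.24 in villin-TLR4, against 9.53, 10.57 and 10.04 in WT littermates, with the groups overlapping; its difference was 0.34 over all arrays and 0.08 without WT littermate replicate 1.

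Mertk, a receptor kinase through which macrophages take up dying cells, read 9.36 and 9.01 in villin-TLR4, against 8.40, 8.51 and 9.18 in WT littermates. The difference was 0.48 ± 0.32 (limma adjusted p 0.870), and 0.33 without WT littermate replicate 1. WT littermate replicate 3 lay between the villin-TLR4 arrays, so the groups overlapped, and a second probe gave a difference of 0.52. Gas6, a secreted ligand that bridges dying cells to this receptor, read 13.41 and 13.04 in villin-TLR4, against 12.52, 12.93 and 12.56 in WT littermates. For Gas6 the groups did not overlap, as for the 12.6% of all genes that were higher in villin-TLR4 without overlap. The Gas6 difference was 0.55 ± 0.26 (limma adjusted p 0.870), 0.11 within scan day 3 and 0.48 without WT littermate replicate 1. The other bridging ligand, Pros1, gave -0.18 and, without that array, -0.26.

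Mrc1, the mannose receptor, read 10.21 and 9.85 in villin-TLR4, against 9.38, 10.45 and 9.53 in WT littermates. Its difference was 0.24 ± 0.38 (limma adjusted p 0.902) over all arrays, 0.04 without WT littermate replicate 1 and -0.60 within scan day 3, the WT littermate array of that day being the highest of the 5. Cd163, the scavenger receptor for haemoglobin bound to haptoglobin, read 13.71 and 13.80 in villin-TLR4, against 13.54, 13.80 and 13.64 in WT littermates. It spanned 0.26 over the 5 arrays, with a difference of 0.10 ± 0.23. That difference was 0.04 without WT littermate replicate 1 and -0.13 when arrays were scaled to their 75th percentile. Adgre1, which encodes a surface receptor widely used to mark mouse macrophages, read 8.57 and 9.22 in villin-TLR4, against 10.01, 8.68 and 8.30 in WT littermates. Its difference was -0.10 ± 0.53 (limma adjusted p 0.973) with WT littermate replicate 1, the highest array, and 0.40 ± 0.28 without it. Il10ra, through which interleukin-10 restrains macrophages, read 7.23 and 7.54 in villin-TLR4, against 7.96, 7.55 and 7.27 in WT littermates, a difference of -0.21 ± 0.29 that was -0.025 without WT littermate replicate 1.

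The complement subunits C1qa, C1qb and C1qc, which macrophages make and which assemble into one protein, shared one pattern. C1qa read 11.00 and 11.19 in villin-TLR4, against 11.45, 11.19 and 10.80 in WT littermates. C1qb read 10.83 and 11.41 in villin-TLR4, against 11.99, 11.11 and 10.62 in WT littermates. C1qc read 11.70 and 12.06 in villin-TLR4, against 12.41, 11.96 and 11.45 in WT littermates. In each, WT littermate replicate 1 was highest and WT littermate replicate 3 lowest, with both villin-TLR4 arrays between them. The differences were -0.05 ± 0.28, -0.12 ± 0.44 and -0.06 ± 0.34 over all arrays (limma adjusted p 0.976, 0.960 and 0.975), and 0.10, 0.26 and 0.17 without WT littermate replicate 1.

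Aif1, which encodes the calcium-binding protein IBA1, read 8.54 and 9.47 in villin-TLR4, against 10.95, 8.57 and 8.23 in WT littermates. WT littermate replicate 1 exceeded the mean of the other 4 arrays by 2.24, the largest such excess among the 12 resident members, and a second found probe read 10.63 there and 8.27 to 8.90 elsewhere. The difference was -0.24 ± 0.82 (limma adjusted p 0.955) over all arrays and 0.60 ± 0.34 without that array. Lgmn and Ctsb encode lysosomal proteases. Lgmn read 11.60 and 12.03 in villin-TLR4, against 11.81, 11.62 and 11.41 in WT littermates, a difference of 0.20 ± 0.26, and of 0.30 without WT littermate replicate 1. Ctsb was the steadiest member, spanning 0.14 over the 5 arrays, with 13.89 and 13.92 in villin-TLR4, against 13.81, 13.92 and 13.95 in WT littermates. Its difference was 0.01 over all arrays and -0.03 without WT littermate replicate 1, and a second found probe gave 0.06. Ctsl and Msr1, a lysosomal protease and a scavenger receptor, were found on 0 arrays, and Fcgr1, the high-affinity Fc receptor, only on WT littermate replicate 2; for these no fold is given.

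**Figure D2:**
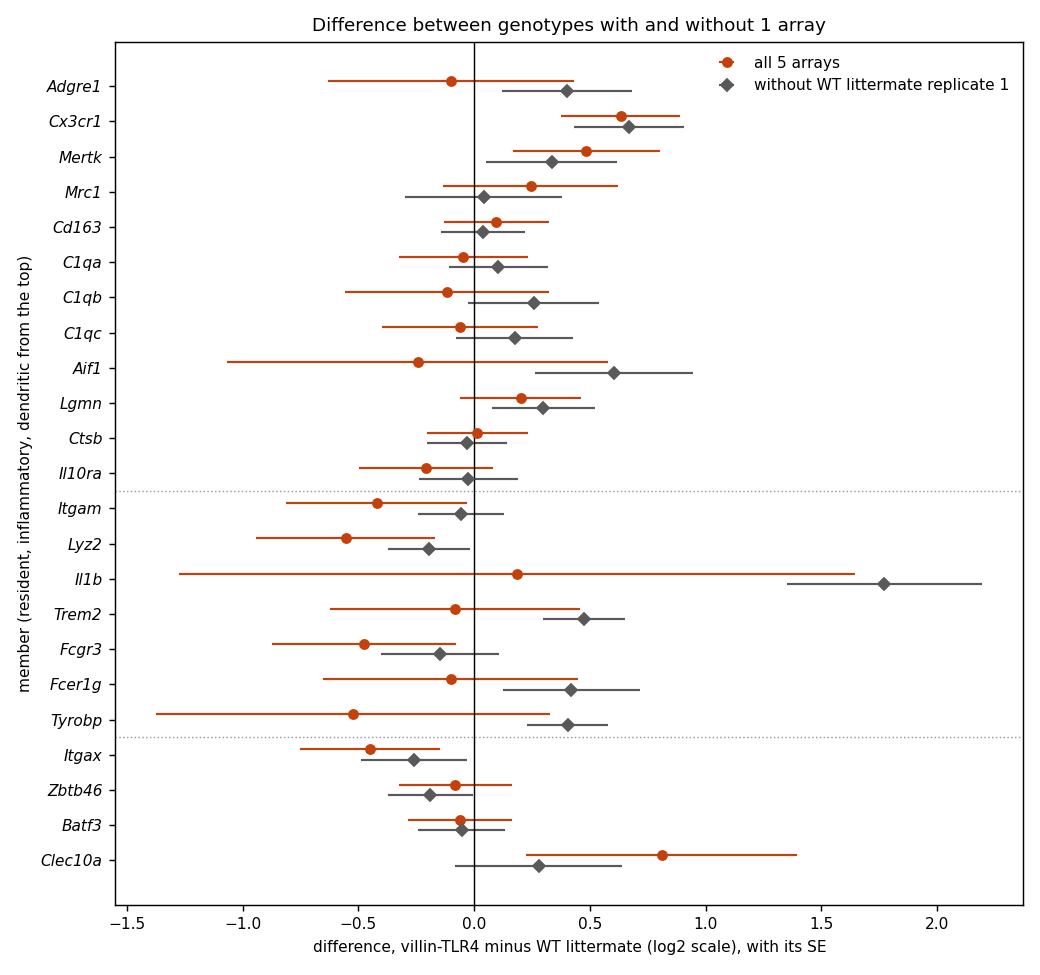
Difference between villin-TLR4 and WT littermates on the log2 scale (x axis) for each tested member (y axis), with all 5 arrays (circles) and without WT littermate replicate 1 (diamonds); bars are the SE from limma. Il1b lies at 0.19 with all arrays and at 1.77 without that array, and Cx3cr1 hardly moves, at 0.63 and 0.67.

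Among inflammatory members, Il1b, the cytokine interleukin-1 beta, had the widest range. It read 8.90 and 10.13 in villin-TLR4, against 12.50, 7.95 and 7.53 in WT littermates. WT littermate replicate 1 was the highest array and the other WT littermate arrays were the lowest, with both villin-TLR4 arrays between. The difference was 0.19 ± 1.46 (limma adjusted p 0.981) over all arrays, 1.77 ± 0.42 without WT littermate replicate 1 (limma adjusted p 0.312) and 2.18 within scan day 3. It did not pass the threshold in any of these fits.

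Tyrobp and Fcer1g encode the signalling adapters of activating receptors on myeloid cells. Tyrobp read 8.73 and 8.78 in villin-TLR4, against 11.13, 8.38 and 8.31 in WT littermates. Fcer1g read 10.63 and 11.19 in villin-TLR4, against 12.05, 10.79 and 10.19 in WT littermates. Both were highest on WT littermate replicate 1, and the groups overlapped. Their differences were -0.52 ± 0.85 and -0.10 ± 0.55 over all arrays (limma adjusted p 0.906 and 0.973), and 0.40 and 0.42 without that array. Of the receptors that signal through them, Trem2, a lipid-sensing receptor coupled to TYROBP, read 7.21 and 7.14 in villin-TLR4, against 8.37, 6.76 and 6.65 in WT littermates, and was not found on villin-TLR4 replicate 2. Its difference was -0.08 ± 0.54 (limma adjusted p 0.980) and, without WT littermate replicate 1, 0.47 ± 0.18 (limma adjusted p 0.432). The Trem2 value on WT littermate replicate 3, 6.65, lay below 6.75, the lowest signal clearly above background on that array. Fcgr3, an Fc receptor coupled to FCER1G and close in sequence to Fcgr2b, read 9.62 and 10.14 in villin-TLR4, against 11.01, 10.21 and 9.85 in WT littermates, with a difference of -0.48 ± 0.40. The Fcgr3 difference was -0.15 without WT littermate replicate 1.

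Itgam, the integrin chain CD11b of monocytes, macrophages and neutrophils, read 7.43 and 7.59 in villin-TLR4, against 8.65, 7.65 and 7.48 in WT littermates. Its difference was -0.42 ± 0.39 (limma adjusted p 0.870), and -0.06 without WT littermate replicate 1. Lyz2, lysozyme M, read 10.91 and 10.98 in villin-TLR4, against 12.22, 11.07 and 11.21 in WT littermates on its brightest probe. Both villin-TLR4 values lay below all WT littermate values, and within scan day 3 the difference was -0.09. Over all arrays it was -0.56 ± 0.39 (limma adjusted p 0.870) and -0.20 without WT littermate replicate 1. On 2 further found probes the groups overlapped, with differences of -0.05 and -0.21. Lyz1, a near-identical gene that Paneth cells express and that such probes may also detect, read 10.04 and 9.32 in villin-TLR4, against 12.17, 10.83 and 11.01 in WT littermates, so the Lyz2 values are uncertain.

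The 3 untested inflammatory members were dim. Arg1, the arginase of alternatively activated macrophages, read 6.77 and 6.53 in villin-TLR4, against 9.87, 6.50 and 6.39 in WT littermates, and was found only on WT littermate replicate 1. Its means were 6.65 in villin-TLR4 and 7.59 in WT littermates. WT littermate replicates 2 and 3 contribute only background readings to that mean, so no fold is given. Without WT littermate replicate 1 the difference was 0.20, between background readings on every array. Marco, a scavenger receptor, was also found only on WT littermate replicate 1, at 7.43, and read 6.01 to 6.49 elsewhere. That 7.43 lay below 7.78, the lowest signal clearly above background on the same array, so no fold is given. Ccr2, the receptor through which monocytes enter the tissue, was found on 0 arrays.

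Without WT littermate replicate 1 the picture of the members shifted: 15 of 23 differences were above 0 and 8 below, beside 48.1% of all genes above 0. That array was set aside in part for its high neutrophil markers, and was the highest array for 7 of 7 inflammatory members. Leaving it out therefore raises every inflammatory difference and is no separate check. The class medians were then 0.22 for resident, 0.40 for inflammatory and -0.12 for dendritic members, against -0.02 over all genes. Within scan day 3 they were 0.20, 0.38 and -0.21. At an unadjusted limma p under 0.05 there were 3 members, Cx3cr1, Il1b and Trem2, beside 10.9% of all genes, 5.30% being higher and 5.58% lower in villin-TLR4. The groups no longer overlapped for 6 members, beside 42.9% of all genes. Cx3cr1, Il1b, Trem2 and Tyrobp were the 4 that read higher in villin-TLR4, beside 20.3% of all genes, and Lyz2 and Zbtb46 the 2 that read lower, beside 22.6%. With limma 0 members and 0 of all genes passed, the smallest adjusted p being 0.312 among members and 0.113 among all genes.

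The 4 tested dendritic members each peaked on a different array. Itgax, the integrin chain CD11c, read 7.63 and 8.12 in villin-TLR4, against 8.71, 8.19 and 8.08 in WT littermates. The difference was -0.45 ± 0.30 (limma adjusted p 0.870), -0.26 without WT littermate replicate 1 and -0.07 within scan day 3, with the groups overlapping. Zbtb46, a transcription factor of classical dendritic cells, read 7.65 and 7.53 in villin-TLR4, against 7.46, 7.88 and 7.68 in WT littermates. Batf3, a transcription factor that cross-presenting dendritic cells require, read 7.41 and 7.63 in villin-TLR4, against 7.59, 7.51 and 7.64 in WT littermates, and was not found on WT littermate replicate 1. For these 2 factors the differences were -0.08 ± 0.24 and -0.06 ± 0.22, and -0.19 and -0.05 without WT littermate replicate 1, with values spanning at most 0.42 over the arrays.

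Clec10a, a lectin of macrophages and dendritic cells, read 8.42 and 7.92 in villin-TLR4, against 6.30, 8.37 and 7.42 in WT littermates. Its difference of 0.81 ± 0.59 (limma adjusted p 0.870) was the largest of the 4 tested dendritic members, with the groups overlapping. The lowest value came from WT littermate replicate 1, where the probe was not found; without it the difference was 0.28 ± 0.36, and within scan day 3 it was -0.44. The markers that define dendritic cells most narrowly were near background: Clec9a, a receptor for dead cells, was found only on WT littermate replicate 3, and Flt3, the FLT3L receptor, and Cd209a, a lectin, were found on 0 arrays. Dendritic cells were therefore represented by genes that other cells also express, together with 2 dim transcription factors.

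**Figure D3:**
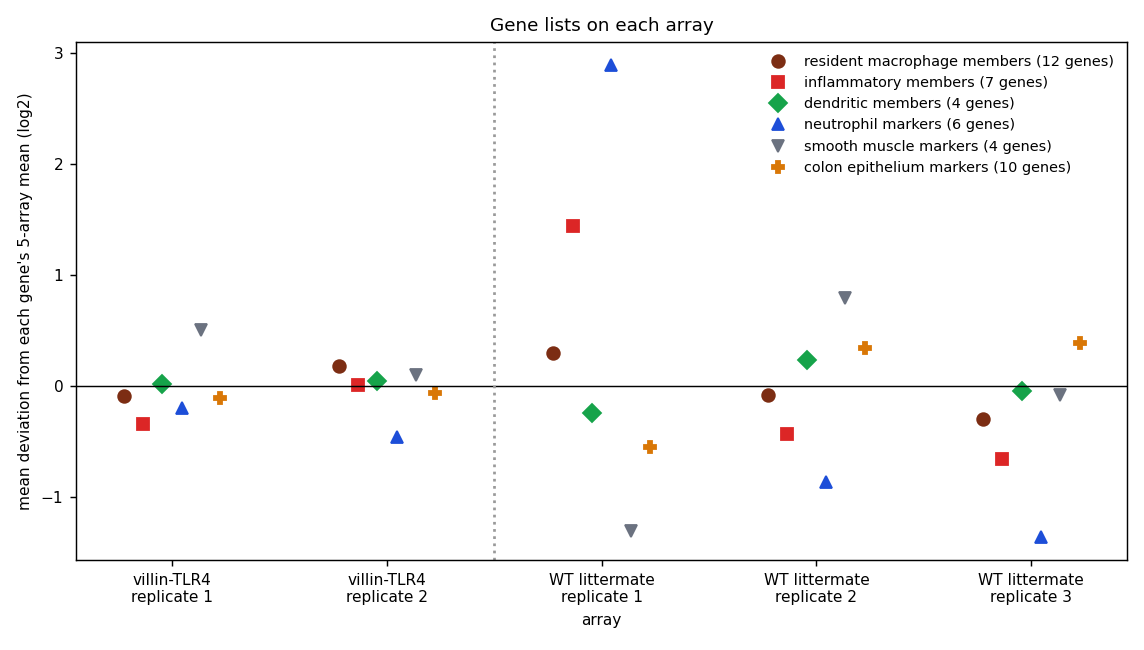
Mean deviation of each gene list from its genes' 5-array means (y axis, log2) on each array (x axis), for genes with a value on all 5 arrays; the dotted line divides the 2 villin-TLR4 arrays from the 3 WT littermate arrays. On WT littermate replicate 1 the neutrophil markers stand at 2.89, the inflammatory members at 1.44 and smooth muscle markers at -1.31.

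Markers of other cell types were set beside these values, array by array. The inflammatory members deviated from their 5-array means by -0.35 and 0.01 in villin-TLR4, against 1.44, -0.44 and -0.66 in WT littermates. Neutrophil markers, of which 6 of 12 were tested, deviated by -0.20 and -0.46 in villin-TLR4, against 2.89, -0.86 and -1.36 in WT littermates. Both lists were highest on WT littermate replicate 1. All 6 tested neutrophil markers peaked there, S100a9 with 8.94 and 7.99 in villin-TLR4, against 14.33, 7.93 and 6.52 in WT littermates, and S100a8 with 9.60 and 9.17 in villin-TLR4, against 12.95, 8.60 and 6.85 in WT littermates. Of the other 6, Cxcr2, Mmp8, Ngp, Camp and Mpo were found only on that array, and Elane was found on 0 arrays. The part of neutrophils in the values of the inflammatory members was not tested.

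Resident members deviated by -0.09 and 0.18 in villin-TLR4, against 0.30, -0.09 and -0.30 in WT littermates, a narrower spread with the same array highest. Smooth muscle markers, 4 of 5 with a value on all arrays, ran the other way on that array, at 0.51 and 0.09 in villin-TLR4, against -1.31, 0.79 and -0.08 in WT littermates; Myh11 and Des varied most. Epithelial markers stood at -0.11 and -0.07 in villin-TLR4, against -0.55, 0.34 and 0.38 in WT littermates, with Slc26a3 and Car1 varying most. T cell markers stood at -0.56 and 0.18 in villin-TLR4, against 0.62, -0.19 and -0.05 in WT littermates. Pancreatic markers, which belong to a neighbouring organ, stood at -1.80 and -1.77 in villin-TLR4, against -0.86, 0.72 and 3.70 in WT littermates, highest on the array where 10 members were lowest. Mast cell markers lay between -0.27 and 0.33, and B and plasma cell markers between -0.32 and 0.40, over the 5 arrays. The part of tissue make-up in the members' values was not tested.

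The ligand list held ligands of the members' receptors, together with Csf2 and Tgfb1, whose receptors are not members. It was measured for 12 of 13 genes, Csf2 being found on 0 arrays. Of the differences 4 were above 0 and 8 below, and 0 passed with limma. There were 7 above 0 and 5 below without WT littermate replicate 1. At an unadjusted limma p under 0.05 there was 1 of 12, beside 4.84% of all genes, and 3 without that array, beside 10.9%. The 1 was Ccl7, a chemokine that draws monocytes through CCR2. Ccl7 read 7.11 and 7.44 in villin-TLR4, against 12.24, 9.88 and 8.58 in WT littermates. Ccl2, the main ligand of CCR2, read 6.96 and 6.88 in villin-TLR4, against 10.94, 8.26 and 7.56 in WT littermates, and was found on 1 of the 2 villin-TLR4 arrays. For both chemokines every WT littermate array lay above both villin-TLR4 arrays. The differences were -2.96 ± 0.98 for Ccl7 and -2.00 ± 0.94 for Ccl2 (limma adjusted p 0.870 for both), and -1.96 and -0.99 without WT littermate replicate 1 (limma adjusted p 0.302 and 0.357). Within scan day 3 they were -2.44 and -1.38.

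**Figure D4:**
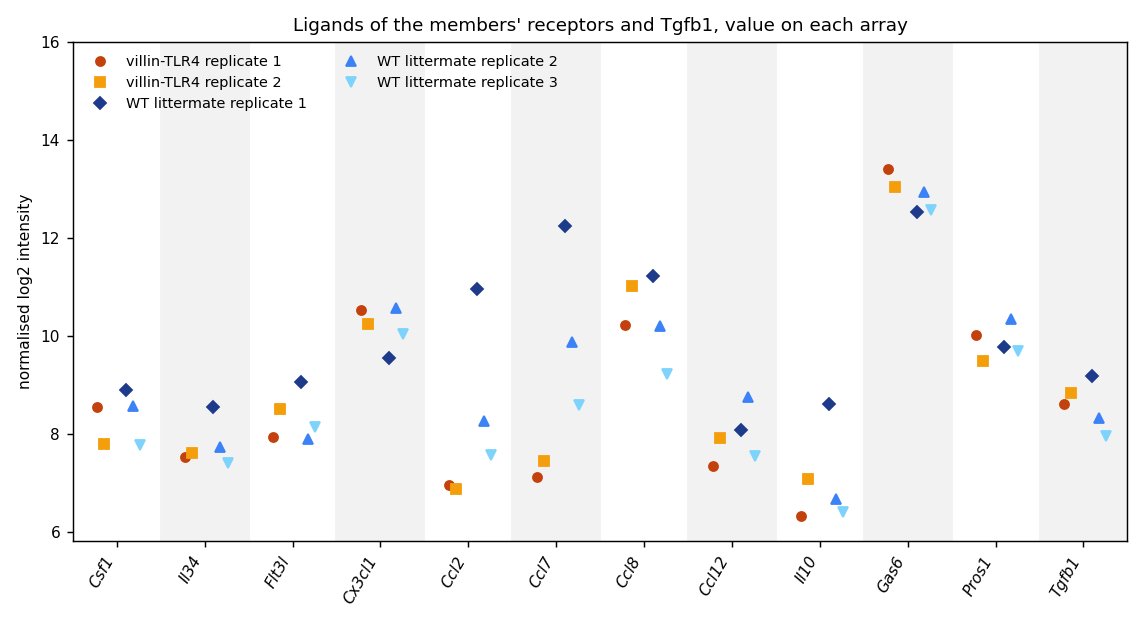
Normalised log2 intensity (y axis) of 12 ligand genes (x axis) on the 2 villin-TLR4 arrays and, to their right, the 3 WT littermate arrays; each point is 1 array. Ccl2 and Ccl7 lie lower on both villin-TLR4 arrays than on every WT littermate array, and Gas6 lies higher.

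Of the further Ccl chemokines in this list, Ccl8 gave 0.40 with overlapping groups. It gave 0.90 without WT littermate replicate 1, with both villin-TLR4 values above both WT littermate values, the opposite direction to Ccl2 and Ccl7. Ccl12 gave -0.51, and -0.53 without that array, with overlapping groups in each case. The groups also overlapped for the growth factors of these cells. The CSF1R ligands Csf1 and Il34 gave -0.24 and -0.33 over all arrays, and 0.00092 and -0.0081 without WT littermate replicate 1. Flt3l gave -0.13 over all arrays and 0.21 without it. Il10, found on 1 villin-TLR4 and 2 WT littermate arrays, read 6.32 and 7.07 in villin-TLR4, against 8.61, 6.67 and 6.39 in WT littermates, again highest on WT littermate replicate 1. Its difference was -0.53 over all arrays and 0.16 without that array. Tgfb1, a cytokine that shapes resident macrophages, gave 0.24 and, without it, 0.58.

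Of the myeloid transcription factors, 10 of 11 were tested, with 4 differences above 0 and 6 below. With limma 0 passed, and 1 had an unadjusted p under 0.05, beside 4.84% of all genes. Without WT littermate replicate 1 there were 5 above 0, 5 below and 2 at an unadjusted limma p under 0.05, beside 10.9% of all genes. The 1 gene over all arrays was Klf4, a factor of monocytes that epithelium also expresses, with 13.36 and 13.52 in villin-TLR4, against 12.51 and 12.22 in WT littermate replicates 2 and 3. It had no value on WT littermate replicate 1, where its spot was marked as bad, so its difference of 1.07 ± 0.28 (limma adjusted p 0.870) comes from 4 arrays. Cebpa, a factor of myeloid differentiation, gave -0.54 ± 0.23 (limma adjusted p 0.870), and -0.47 without WT littermate replicate 1, with both villin-TLR4 values below all WT littermate values.

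Receptor partners and lysosomal proteins were tested for 15 of 17 genes, with 8 differences above 0 and 7 below, or 9 and 6 without WT littermate replicate 1. Those with an unadjusted limma p under 0.05 numbered 0 either way, beside 4.84% of all genes, or 10.9% without that array. The 3 with the smallest p were Lamp1, a lysosomal membrane protein, at 0.37 ± 0.23, Tyro3, a receptor related to Mertk, at 0.34 ± 0.23, and Grn, progranulin, at 0.43 ± 0.31. Without that array they gave 0.32, 0.33 and 0.22. Further resident macrophage genes were tested for 9 of 9, with 7 differences above 0 and 2 below, or 5 and 4 without WT littermate replicate 1. Again 0 had an unadjusted limma p under 0.05 either way, beside the same shares of all genes. Their smallest p values belonged to Hpgds, a prostaglandin D synthase, at 0.54 ± 0.24, Vsig4, a complement receptor, at 0.40 ± 0.26, and Stab1, a scavenger receptor, at 0.52 ± 0.40. Without that array they gave 0.52, 0.32 and 0.79. Further dendritic genes were tested for 11 of 14, with 3 above 0 and 8 below with or without WT littermate replicate 1. At an unadjusted limma p under 0.05 there were 0, beside 4.84% of all genes, or 2 without that array, beside 10.9%. Sirpa, a receptor of one dendritic subset and of macrophages, gave 0.54 ± 0.33, Cd24a -0.55 ± 0.45 and Relb 0.39 ± 0.34. Without that array Sirpa gave 0.33, Cd24a -0.34 and Relb 0.68, and the groups then did not overlap for Relb. In none of these lists did a gene pass with limma, with or without that array.

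Further inflammatory genes were tested for 15 of 20, with 7 differences above 0 and 8 below; 0 passed with limma, and 1 was higher and 1 lower at an unadjusted p under 0.05, beside 4.84% of all genes. Without WT littermate replicate 1, 11 were above 0 and 4 below, and 7 had an unadjusted limma p under 0.05, beside 10.9% of all genes, with 0 passing. The median difference of the list was -0.15 over all arrays and 0.27 without that array. Nos2, the inducible nitric oxide synthase of activated macrophages and of epithelium, read 8.78 and 9.56 in villin-TLR4, against 7.96, 6.15 and 6.43 in WT littermates. Its probe was found on 1 WT littermate array and on both villin-TLR4 arrays, and every villin-TLR4 value was above every WT littermate value. The fitted difference was 2.32 ± 0.58 (limma adjusted p 0.870), to which WT littermate replicates 2 and 3 contribute only background. Without WT littermate replicate 1 no WT littermate array measured Nos2. The villin-TLR4 mean was at least 5.34-fold higher than the lowest signals clearly above background on WT littermate replicates 2 and 3. The fitted difference was then 2.88 ± 0.30 (limma adjusted p 0.113). That fit treats background readings as levels and does not test the bound. Ly6c1, close in sequence to the monocyte gene Ly6c2, read 10.94 and 11.35 in villin-TLR4, against 12.63, 11.85 and 11.62 in WT littermates, a difference of -0.89 ± 0.36, and of -0.59 without WT littermate replicate 1. Casp1, the protease that matures interleukin-1 beta, gave 0.54 ± 0.25 without overlap between the groups, and 0.43 without WT littermate replicate 1.

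Tnf and Cd14 were singled out after their values were seen, because they share with Il1b low values on WT littermate replicates 2 and 3. Tnf, a cytokine of activated macrophages, read 9.0 and 9.96 in villin-TLR4, against 9.95, 6.83 and 6.81 in WT littermates. Cd14, the co-receptor for lipopolysaccharide, read 10.69 and 11.25 in villin-TLR4, against 11.92, 9.72 and 9.88 in WT littermates. By that choice, WT littermate replicates 2 and 3 were the lowest arrays in both, and WT littermate replicate 1 lay near or above villin-TLR4. The differences were 1.61 ± 0.98 and 0.47 ± 0.68 over all arrays (limma adjusted p 0.870 and 0.895), and 2.66 and 1.18 without WT littermate replicate 1 (limma adjusted p 0.155 and 0.300). As the choice used these arrays, the values without WT littermate replicate 1 restate it. The other genes of this list at an unadjusted limma p under 0.05 without that array went both ways. Retnla, Thbs1 and Ly6c1 were lower in villin-TLR4, at -2.03, -1.14 and -0.59. Saa3 was higher, at 1.29, as was Nos2.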

How the data were processed

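RNA from 5 mouse colon samples was made into biotin-labelled cRNA, per the labels' protocols, and hybridised to single-colour arrays. The deposited scanner files give foreground and background intensity for 38880 spots at 635 nm, read with GenePix Pro 4.1.1.4 and not normalised, per the file headers. A flag score per spot, in the deposited files, marks it as found (0), not found (-50) or bad (-100). The authors' deposited value table holds a linear ratio for 15308 probes whose scale and centring are unknown; its column medians were 0.981 and 1.065 in villin-TLR4, and 1.176, 0.980 and 0.991 in WT littermates, and its direction matched the scanner values (r of differences between arrays from 0.940 to 1.00).

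Medians were background-corrected with normexp (offset 50, all spots) in limma 3.58.1 under R 4.3.3, bad spots were set to missing, 3802 control spots were dropped, and log2 values were quantile normalised. Accessions were named through RefSeq (GRCm38.p6): 23017 of 35078 gene probes had 1 symbol. Probes found on fewer than 2 arrays were dropped, and the brightest probe stood for a gene. The genotype difference was fitted with lmFit and eBayes (two-sided); p-values were adjusted by Benjamini-Hochberg over 15078 genes or unnamed probes. All 35 members, all tested ligands, the 3 smallest p values of each other related list and the 2 widest-ranging genes of each marker list could be named. One gene that this rule gives is not reported here. The bound for Nos2 used, per array, the lowest signal among found probes more than 2 background SDs above background. Members and lists were chosen with earlier results of these data known. The code was tested on simulated data. Same-numbered replicates did not deviate together (r = -0.187 across genes for the only such pair of differences), so no pairing was used. Alternatives were no background correction, 75th percentile scaling, no filter, probes found on all 5 arrays, averaging a gene's probes, a replicate block, scan day as a block, the authors' table and leaving out each array.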

Additional observations from a re-analysis of the deposited data

How the results depend on the processing

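Under every alternative run, 0 members passed an adjusted p of 0.05 with limma. Over all genes, 20 passed with the replicate block and 3 with scan day as a block, and 0 under the others; the cause was not tested. Members at an unadjusted limma p under 0.05 numbered 1 in the reported fit, beside 730 of 15078 genes. They numbered 0 with 75th percentile scaling, beside 589, with the replicate block, beside 788, and with scan day as a block, beside 328. With probes found on all 5 arrays (Cx3cr1 is then not tested) there were 0, beside 524 of 10218 genes. The authors' table gave 0, beside 627 of 12095. With 1 WT littermate array left out, they ran from 0 without replicate 3, beside 823 of 15078 genes, to 3 without replicate 1, beside 1640. Members whose groups did not overlap numbered 2 in the reported fit, beside 25.4% of all genes. They numbered 1 with 75th percentile scaling, on all 5 arrays or with the mean of probes, and 0 in the authors' table. With 1 array left out they numbered 4 to 9, 9 without villin-TLR4 replicate 2, where fewer arrays can overlap. Without WT littermate replicate 1 the share of all genes was 42.9%. For the other alternatives that share is not given, so these counts cannot be read as particular to the members. The dendritic median became -0.27 on all 5 arrays, where Clec10a and Batf3 are not tested.

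Of 293 pairs of a member and an alternative 38 reversed, over 16 members. These alternatives are not all separate checks. As only scan day 3 held both genotypes, the members' differences with scan day as a block repeat the within-day values. With scan day as a block Adgre1 gave 0.53, Mrc1 -0.60, C1qa 0.0025, C1qb 0.30, C1qc 0.10, Aif1 0.90, Trem2 0.38, Fcer1g 0.40, Tyrobp 0.39, Batf3 0.12 and Clec10a -0.44. Cd163 and Ctsb gave -0.13 and -0.19 with 75th percentile scaling, and -0.17 and -0.23 in the authors' table. Il1b gave -0.71 with the replicate block, which repeats its value without WT littermate replicate 3, an array with no villin-TLR4 partner. With 1 array left out in turn, differences ranged from -0.45 to 0.40 for Adgre1, -0.22 to 0.10 for C1qa, -0.43 to 0.26 for C1qb, -0.30 to 0.17 for C1qc, -0.75 to 0.60 for Aif1, -0.012 to 0.42 for Lgmn, -0.029 to 0.043 for Ctsb, -0.71 to 1.77 for Il1b, -0.39 to 0.47 for Trem2, -0.51 to 0.42 for Fcer1g, -1.01 to 0.40 for Tyrobp, -0.19 to 0.021 for Zbtb46 and -0.17 to 0.050 for Batf3.

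Leaving out a villin-TLR4 array leaves 1, assumed to vary like the WT littermates. Dim probes, such as those of Cx3cr1, Trem2 and Batf3, lie near background, and members found on fewer than 2 arrays could not be tested.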
